A study of Mus musculus with 4 samples.

Results

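The 9 genes described here encode the serine synthesis route (Phgdh, Psat1, Psph), the enzymes that exchange serine and glycine (Shmt1, Shmt2), the enzyme that makes D-serine (Srr), a neutral amino acid carrier (Slc1a4) and the cystine carrier with its heavy chain (Slc7a11, Slc3a2). They were taken by symbol from a table of 27999 genes and all 9 were in it. The list and the gates below were drawn up with earlier results of these barcodes known, in which Phgdh and Slc7a11 stood among the genes highest in RGCs with Pou4f1, so the members were in part chosen by their UMI levels here, and otherwise by pathway. Every value is therefore a description and carries no test.

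The cells came from C57BL/6 mice aged 3 months that carried a GFP reporter for Brn3b, the transcription factor encoded by Pou4f2, and were sorted for GFP before droplet capture. The reporter marks retinal ganglion cells (RGCs), the output neurons of the retina, and the labels do not say what else it marks. The 4 retinas form 1 group, with no treatment named, and no barcode names its retina, so the table is 1 pooled sample without replicates. It holds 3237 barcodes with 31361961 unique molecular identifiers (UMIs), between 3198 and 53709 each with a median of 7674.

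RGC barcodes (950) had 1 or more UMIs of Slc17a6, 3 or more of Rbpms and Slc17a6 together, and at most 1 of Lhx1. The 3 subsets cut from them were 98 barcodes with 2 or more Foxp2 UMIs, 75 with 2 or more of Tbr1 and Plpp4 together, and 63 with 3 or more of Opn4, the melanopsin gene. The last pair of subsets share 3 barcodes, and 717 RGC barcodes remained outside all of them. The comparison classes were 456 horizontal cell barcodes (Lhx1), 236 Müller glia barcodes (Rlbp1 and Slc1a3) and 720 bipolar cell barcodes (Trpm1 and Pcp2). All 10 RGC markers reached a level of 10 CPM (UMIs of a gene scaled to a total of 1000000) in the RGC barcodes, and they summed to 10731 CPM there, against 1426 CPM in horizontal, 675 CPM in Müller and 2010 CPM in bipolar barcodes. The labels call all the cells RGCs, while the gates for other classes were each met by many barcodes. Median depth was 15852 UMIs in RGC, 11082.5 in horizontal, 4676.5 in Müller and 4278.5 in bipolar barcodes, and the median mitochondrial share was 3.97%, 7.01%, 6.84% and 9.86% in the same order. In all, 98 barcodes met the gates of 2 or more classes. All intervals are 95% and cover counting error only.

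Serine is made from the glycolytic intermediate 3-phosphoglycerate in a short chain: PHGDH oxidises it, PSAT1 adds the amino group and PSPH removes the phosphate. SHMT1 in the cytosol and SHMT2 in mitochondria turn serine into glycine and pass a carbon to folate, and serine racemase (Srr) turns L-serine into D-serine, a co-agonist of NMDA receptors. The system xc- carrier, SLC7A11 joined to SLC3A2, takes in cystine for glutathione in exchange for glutamate. In brain and retina, glia are known as the main site of serine synthesis, and several of these genes are known targets of ATF4, the transcription factor of the amino acid response.

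Promoter sequence is shown for Slc7a11, for Slc1a4, the gene whose pattern across RGC clusters was most like that of Slc7a11, and for Phgdh. The sequences are from RefSeq on GRCm38.p6, on the minus strand and 5′ to 3′, and start 250 bases before the annotated gene start: Slc7a11 chr3:50443614-50443863, Slc1a4 chr11:20332710-20332963 and Phgdh chr3:98339970-98340219. Capitals mark TGATGNAA or its reverse TTNCATCA, the core of the amino acid response element.
Slc7a11: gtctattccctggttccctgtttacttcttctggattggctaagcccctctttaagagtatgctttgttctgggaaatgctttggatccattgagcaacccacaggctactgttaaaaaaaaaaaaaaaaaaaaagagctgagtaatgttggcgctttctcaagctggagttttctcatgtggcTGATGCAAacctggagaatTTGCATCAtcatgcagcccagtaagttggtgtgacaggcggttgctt
Slc1a4: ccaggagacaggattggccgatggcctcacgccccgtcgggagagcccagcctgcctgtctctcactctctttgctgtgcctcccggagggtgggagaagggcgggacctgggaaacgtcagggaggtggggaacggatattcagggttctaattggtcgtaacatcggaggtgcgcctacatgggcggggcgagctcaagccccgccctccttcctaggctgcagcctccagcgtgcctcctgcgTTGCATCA
Phgdh: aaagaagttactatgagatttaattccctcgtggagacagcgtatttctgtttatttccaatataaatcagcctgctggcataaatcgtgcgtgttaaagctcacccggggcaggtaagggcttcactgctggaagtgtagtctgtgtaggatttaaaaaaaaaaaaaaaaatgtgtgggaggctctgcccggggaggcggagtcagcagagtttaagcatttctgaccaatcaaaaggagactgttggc
Slc7a11 holds 2 matches, TGATGCAA from 66 to 59 bases before the start and TTGCATCA from 47 to 40 bases before it. Slc1a4 holds 1 match, which begins 4 bases before the start. The promoters of the 7 other members hold 0 matches in windows of 300 bases, and 3.97% of 32851 promoters of that length hold 1 or more. A match is a description of letters, not a site.

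The genes lie on the minus strand of mm10 (GENCODE coordinates, protein coding): Phgdh (ENSMUSG00000053398) at chr3:98313170-98339990, Psat1 (ENSMUSG00000024640) at chr19:15904678-15947337, Psph (ENSMUSG00000029446) at chr5:129765558-129787449, Shmt1 (ENSMUSG00000020534) at chr11:60788104-60811718 and Shmt2 (ENSMUSG00000025403) at chr10:127517123-127522444. The others are Srr (ENSMUSG00000001323) at chr11:74906359-74925948, Slc1a4 (ENSMUSG00000020142) at chr11:20302180-20332713, Slc7a11 (ENSMUSG00000027737) at chr3:49892526-50443614 and Slc3a2 (ENSMUSG00000010095) at chr19:8706882-8723369. The last 500 bases of the Phgdh transcript have close copies in 6 other annotated genes, none of them in the table, so its count is uncertain to the extent that reads were shared or dropped. Shmt1, Shmt2, Srr and Slc7a11 overlap genes of the opposite strand that are in the table.

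Across classes, RGC barcodes held Phgdh and Slc7a11 at levels above horizontal and bipolar barcodes, while Müller barcodes held the rest of the serine chain and the cystine carrier at higher levels than RGCs. Phgdh, the first enzyme of the chain, was at 25.3 CPM in RGC barcodes (22.9 to 27.9), 6.72 CPM in horizontal, 20.9 CPM in Müller and 3.20 CPM in bipolar barcodes. It was higher still, at 71.6 CPM (56.2 to 90.1), in 194 barcodes gated as microglia. The intervals of RGC and Müller barcodes overlapped. Psat1, the aminotransferase, was at 16.8 CPM in RGC, 23.5 CPM in horizontal, 109 CPM in Müller and 3.73 CPM in bipolar barcodes. Psph, the phosphatase, was at 41.8 CPM in RGC, 59.3 CPM in horizontal, 107 CPM in Müller and 20.8 CPM in bipolar barcodes. Müller barcodes thus had the highest level of the later enzymes among 8 gated classes, and their intervals overlapped those of no other class.

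The serine to glycine step and the carriers had other orders. Shmt2 was at 14.9 CPM in RGC barcodes and at 117 CPM in horizontal barcodes (108 to 127), the highest of the classes, with 24.3 CPM in Müller and 18.9 CPM in bipolar barcodes. Shmt1 had 2 UMIs in all RGC barcodes and 4 in the whole table, too few to describe further. Srr was at 12.9 CPM in RGC, 10.5 CPM in horizontal, 20.1 CPM in Müller and 12 CPM in bipolar barcodes. Slc1a4, which carries serine, alanine and cysteine, was at 21.0 CPM in RGC, 40.7 CPM in horizontal, 20.9 CPM in Müller and 5.87 CPM in bipolar barcodes. Slc7a11, the cystine-carrying chain, was at 11.7 CPM in RGC barcodes (189 UMIs), 0.198 CPM in horizontal barcodes (1 UMI), 29.3 CPM in Müller and 1.87 CPM in bipolar barcodes. Slc3a2, the heavy chain that also serves other carriers, was at 78.9 CPM in RGC, 119 CPM in horizontal, 377 CPM in Müller and 78.1 CPM in bipolar barcodes. It stood at 397 CPM in microglia barcodes.

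**Figure D1:**
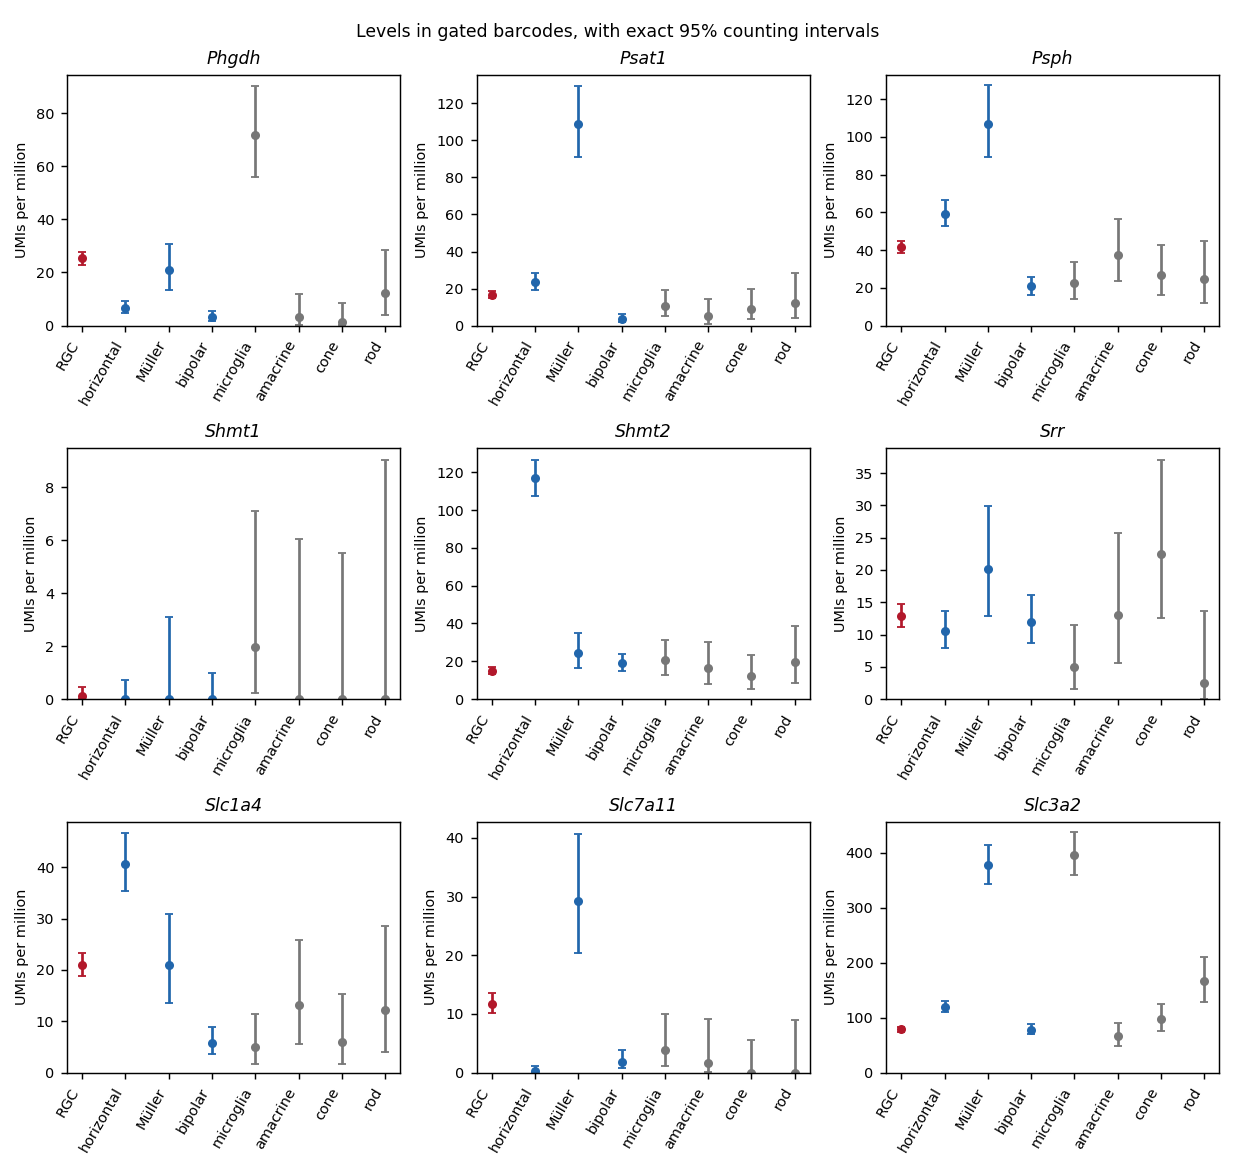
Level of each gene (vertical axis, CPM, each panel on its own scale) in barcodes gated as RGC (red), horizontal, Müller and bipolar (blue) and 4 further classes (grey), with exact 95% counting intervals. Phgdh is highest in microglia barcodes at 71.6 CPM, Shmt2 in horizontal barcodes at 117 CPM, and Psat1, Psph and Slc7a11 in Müller barcodes.

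The shares of barcodes were also compared at an equal depth of 3000 UMIs. Free RNA gives UMIs in cells that do not make a transcript, and an equal depth does not remove them. Phgdh was found in 6.42% of RGC barcodes (4.95% to 8.17%), 1.32% of horizontal, 4.66% of Müller, 0.833% of bipolar and 17.5% of microglia barcodes. It was also found in 2.41% of 83 rod barcodes (0.293% to 8.43%) and 0.71% of 140 cone barcodes, whose full median depths were 4011 and 3882.5 UMIs, and in none of 99 amacrine barcodes. The rod and RGC intervals overlapped. Slc7a11 was found in 3.47% of RGC barcodes, 0.219% of horizontal barcodes and in none of 140 cone barcodes.

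Set against horizontal barcodes, 2 of the 8 members with 50 or more UMIs were higher in RGC barcodes by 2-fold or more, where 20.2% of 11631 genes were, and 1 was lower, where 9.49% were. Phgdh was 3.77-fold higher (2.65 to 5.51). Slc7a11 was 59.5-fold higher (10.5 to 2361), a wide interval because the horizontal value is 1 UMI. Without the barcode that holds it, Slc7a11 was at least 19.2-fold higher. Shmt2 was lower, at 0.128 of the horizontal level (0.109 to 0.148). Slc1a4 was at 0.516, and at 0.50, just past the 2-fold line, when UMIs of mitochondrial genes were left out of the total.

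Set against Müller barcodes, none of the 8 was higher by 2-fold, where 27.3% of 11559 genes were, and 4 were lower, where 16.4% were. Psat1 in RGC barcodes was at 0.154 of the Müller level (0.125 to 0.192) and Slc3a2 at 0.209 (0.188 to 0.233). Psph was at 0.390 and Slc7a11 at 0.401. Phgdh, at 1.21 (0.807 to 1.89), and Slc1a4, at 1.00 (0.668 to 1.57), had intervals that span 1.

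Set against bipolar barcodes, 5 of the 8 were higher by 2-fold or more, where 22.6% of 11624 genes were, and none was lower, where 12.6% were. Phgdh was 7.90-fold higher (4.48 to 15.4), Slc7a11 6.29-fold, Psat1 4.49-fold and Slc1a4 3.58-fold. With barcodes of 2 classes left out these became 26.0-fold, 36.0-fold, 16.9-fold and 8.0-fold, as bipolar barcodes then held 0.987 CPM of Phgdh. With only barcodes under 10% mitochondrial UMIs, Psat1 was 2.88-fold and Slc1a4 2.34-fold higher. Psph, at 2.01-fold, fell under the line at 1.98-fold under that filter, and at 1.88-fold with mitochondrial genes left out of the total.

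Within the RGCs, Phgdh and Slc7a11 were uneven between the subsets, each in its own way. Phgdh was at 92.9 CPM in the Foxp2 subset (78.6 to 109), 23.3 CPM in the Tbr1/Plpp4 subset and 18.9 CPM in the remaining RGCs (16.5 to 21.5), and no UMI was found in the Opn4 subset. Slc7a11 was at 63.0 CPM in the Tbr1/Plpp4 subset (50.03 to 78.3), 6.81 CPM in the Foxp2 subset and 8.08 CPM in the remaining RGCs, and again no UMI was found in the Opn4 subset. The Foxp2 subset, 10.3% of RGC barcodes, held 36.9% of their Phgdh UMIs, and the Tbr1/Plpp4 subset, 7.89% of barcodes, held 42.9% of their Slc7a11 UMIs.

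**Figure D2:**
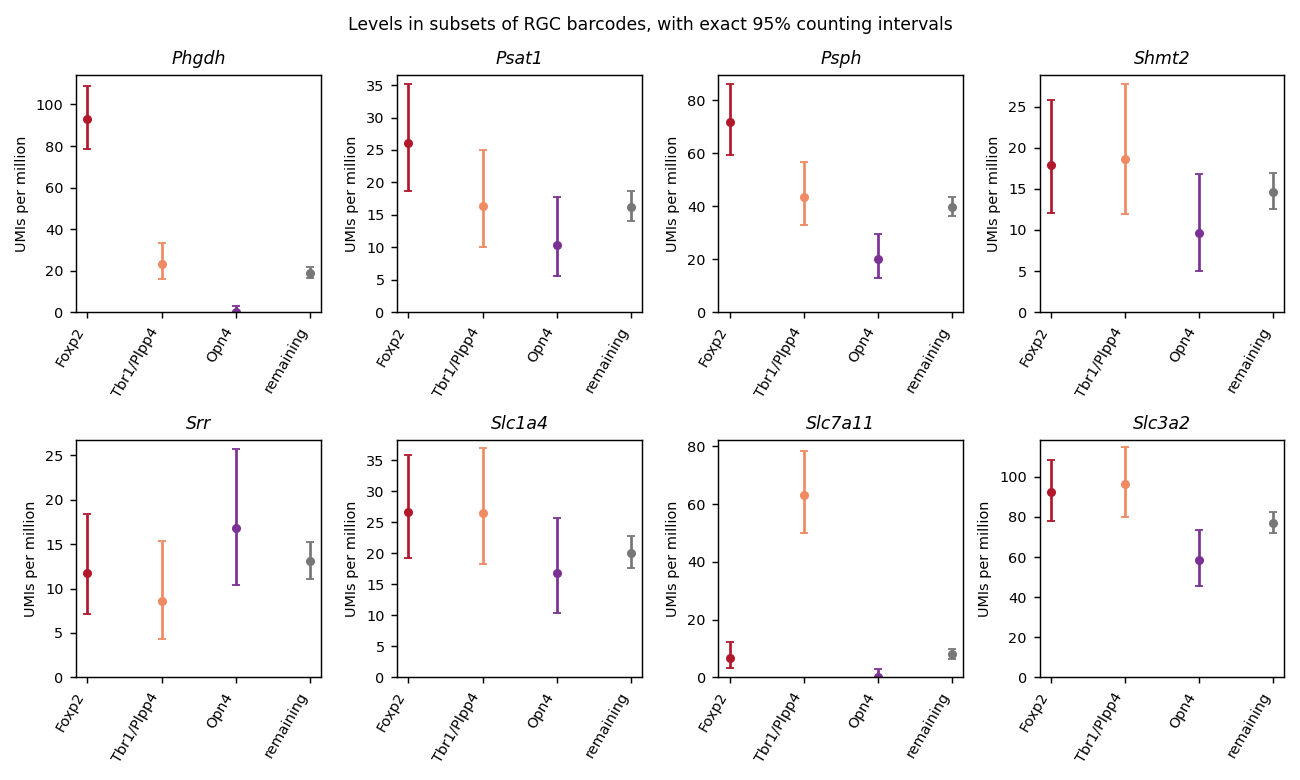
Level (vertical axis, CPM, each panel on its own scale) of the 8 members with more than 4 UMIs in the Foxp2, Tbr1/Plpp4 and Opn4 subsets and the remaining RGC barcodes, with exact 95% counting intervals. Phgdh stands apart in the Foxp2 subset at 92.9 CPM, Slc7a11 in the Tbr1/Plpp4 subset at 63.0 CPM, and both are at 0 in the Opn4 subset.

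In the Foxp2 subset, 1 of the 8 members was higher than in the remaining RGCs by 2-fold or more, where 1.02% of 10784 genes were, and none was lower, where 4.67% were. That member was Phgdh, 4.91-fold higher (3.97 to 6.07). The next steps of the chain were at smaller ratios with intervals above 1, Psph at 1.80 (1.46 to 2.21) and Psat1 at 1.60 (1.12 to 2.25). Shmt2 (1.23), Slc1a4 (1.33), Srr (0.900) and Slc7a11 (0.843) had intervals that span 1, and Slc7a11 was at 0.554 when set against all RGCs outside the gate. In the Tbr1/Plpp4 subset, 1 of 8 was higher, where 1.07% of 10742 genes were, and none lower, where 4% were. That member was Slc7a11, 7.80-fold higher (5.74 to 10.6), while its partner Slc3a2 was at 1.25 (1.03 to 1.51) and Phgdh at 1.23 (0.814 to 1.81).

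In the Opn4 subset, none of the 8 was higher by 2-fold, where 3.16% of 10766 genes were, and 2 were lower, where 6.94% were. Phgdh was at least 7.88-fold lower and Slc7a11 at least 3.37-fold lower than in the remaining RGCs, with the subset set to a floor of 3 UMIs in all. Psph was at 0.502 (0.322 to 0.750), which lies at the 2-fold line, and 7 of 8 alternatives put it past the line, at 0.434 to 0.497. The median depth of the Opn4 subset was 18005 UMIs, against 15798 UMIs in the remaining RGCs, and its part in these levels was not tested.

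At an equal depth of 10000 UMIs, Phgdh was found in 38.3% of 94 Foxp2 barcodes (28.5% to 48.9%), 21.4% of 70 Tbr1/Plpp4 barcodes and 13.5% of 623 remaining RGC barcodes. No Phgdh UMI was found in the 62 Opn4 barcodes, where the floor of 3 barcodes comes to 4.84% and the exact 95% upper limit to 5.78%. Both limit the share of barcodes with a UMI, not of cells that express the gene. Without thinning, the shares were 45.9%, 24.0% and 18.5% in the same order. Of the 456 horizontal barcodes, whose median was 11082.5 UMIs, 319 reached that depth and had a share of 7.52%. Slc7a11 was found in 40.0% of Tbr1/Plpp4 barcodes (28.5% to 52.4%), 9.57% of Foxp2 barcodes, none of 62 Opn4 barcodes and 6.10% of remaining RGC barcodes, with 0.313% of horizontal barcodes. The unthinned Slc7a11 shares were 41.3%, 11.2%, 0% and 8.37%. The levels per barcode were uneven too, as 17 of the 94 Foxp2 barcodes had 3 or more Phgdh UMIs and 58 had none.

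**Figure D3:**
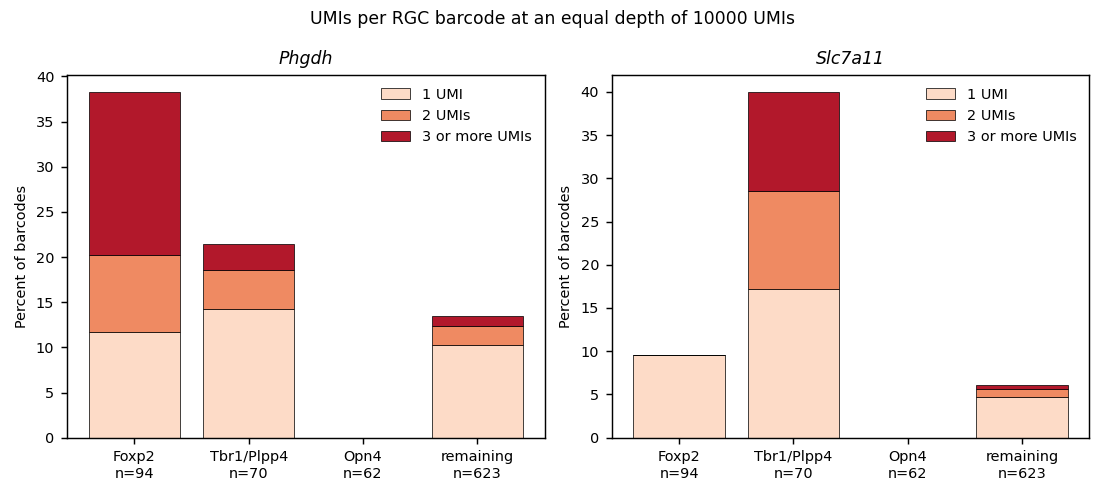
Share of RGC barcodes (vertical axis, percent) with 1, 2 or 3 and more UMIs of Phgdh (left) and Slc7a11 (right) after thinning to 10000 UMIs, in the Foxp2, Tbr1/Plpp4 and Opn4 subsets and the remaining RGCs. Phgdh is found in 38.3% of Foxp2 barcodes and Slc7a11 in 40.0% of Tbr1/Plpp4 barcodes, and neither in the 62 Opn4 barcodes.

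The levels near the gates show how far they depend on the thresholds. Phgdh was at 17.1 CPM in RGC barcodes without a Foxp2 UMI, 34.0 CPM with 1, 73.8 CPM with 2, 116 CPM with 3 to 5 and 75.5 CPM with 6 or more. Slc7a11 was at 7.13 CPM with no UMI of Tbr1 or Plpp4, 8.47 CPM with 1, 48.6 CPM with 2, 84.4 CPM with 3 to 4 and 35.7 CPM in the 8 barcodes with 5 or more. The gate sums Plpp4, a phospholipid phosphatase gene, and Tbr1, a transcription factor gene, and Slc7a11 was read for each alone, a split made after its values were seen. It was 89.6 CPM (61.7 to 126) in 21 barcodes with 2 or more Plpp4 UMIs and no Tbr1, 91.0 CPM in 32 with both, and 4.85 CPM (0.587 to 17.5) in 22 with 2 or more Tbr1 UMIs and no Plpp4. By Opn4, Phgdh was at 28.3 CPM with no UMI, 17.5 CPM with 1, and 0 in the 10 barcodes with 2, the 28 with 3 to 9 and the 35 with 10 or more.

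**Figure D4:**
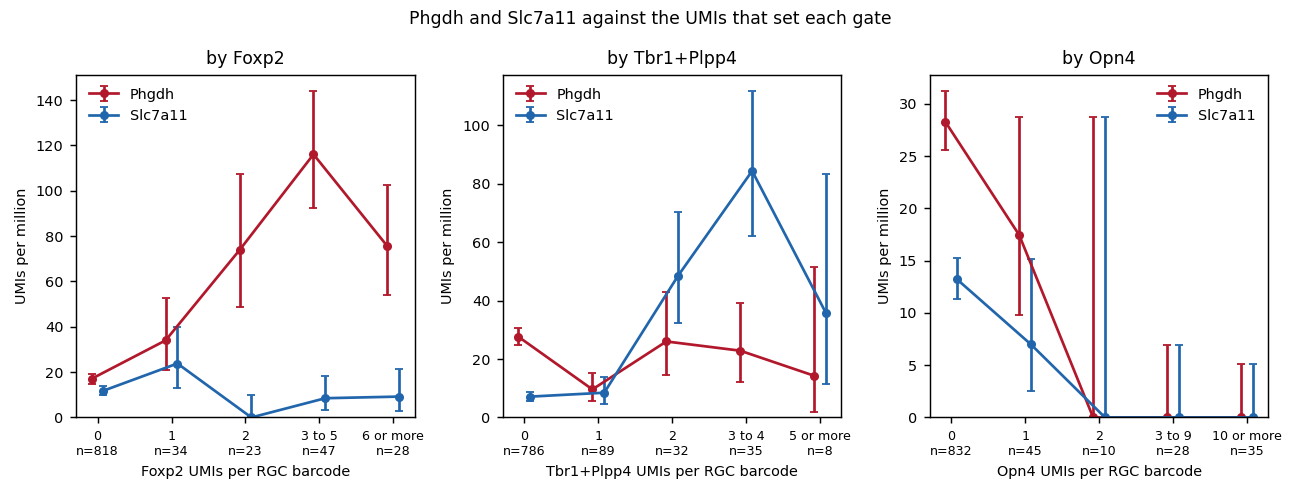
Levels of Phgdh (red) and Slc7a11 (blue) in RGC barcodes (vertical axis, CPM) by the number of Foxp2, Tbr1 and Plpp4, or Opn4 UMIs in the barcode (horizontal axis, with the number of barcodes), with exact 95% counting intervals. Phgdh reaches 116 CPM at 3 to 5 Foxp2 UMIs, Slc7a11 reaches 84.4 CPM at 3 to 4 Tbr1 and Plpp4 UMIs, and both are at 0 from 2 Opn4 UMIs on.

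The RGC barcodes were also grouped without these genes, by clustering on other variable genes, which gave 24 clusters, 22 of them with 20 or more barcodes. Clusters are called here by their 2 leading genes. Phgdh was highest in the Foxp2/Tusc5 cluster, at 153 CPM (130 to 179) in 71 barcodes, 56 of them in the Foxp2 gate. It was followed by the Zic1/Penk cluster at 87.3 CPM (60.8 to 121), the Penk/Prdm8 cluster at 52.1 CPM and the Ppp1r17/Lypd1 cluster at 50.3 CPM, of which none holds a Foxp2-gated barcode. The median cluster was at 11.0 CPM. No Phgdh UMI was found in the Spp1/Ctxn3 and Cdkn1c/Cd24a clusters, which hold 34 and 25 of the 63 Opn4 barcodes. Low levels were not limited to these. Phgdh had 2 UMIs each in the Meis2/Neurod2 (68 barcodes) and Gngt1/Pdc (43) clusters. It had 1 UMI each in the Tbr1/Nrgn (25) and Tbx20/Prph (29) clusters. These 4 clusters hold at most 1 Opn4 barcode each.

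Phgdh also differed inside the Foxp2 gate. The 56 barcodes of the Foxp2/Tusc5 cluster were at 165 CPM of Phgdh (139 to 195), while the 16 barcodes of the Coch/Lor cluster, all in the gate, had no UMI, with an upper limit of 10.1 CPM. The median depth of those 16 was higher, at 20085 UMIs against 15027.5 UMIs. A further 14 gated barcodes fell in a cluster led by the microglial genes C1qa and C1qc and were at 20.6 CPM.

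Slc7a11 was highest in the Plpp4/Rprm cluster, at 112 CPM (90.3 to 137) in 60 barcodes, followed by Zic1/Penk at 49.9 CPM (30.5 to 77.0). In the Tbx20/Prph cluster, at 29.9 CPM, 54.5% of the UMIs came from 1 barcode. No UMI was found in 9 of the 22 clusters. The Tbr1/Nrgn cluster was at 2.37 CPM. The Zic1/Penk cluster, with 24 barcodes and none in the 3 gates, was highest for Psat1 (47.4 CPM), Psph (130 CPM), Shmt2 (32.4 CPM), Slc1a4 (44.9 CPM) and Slc3a2 (147 CPM), though for each of these its interval overlapped that of the next cluster. Srr was between 4.76 and 21.1 CPM, and its highest cluster was 1.67 times its median cluster, against 2.0 times for Slc3a2 and 53.1 times for Slc7a11.

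**Figure D5:**
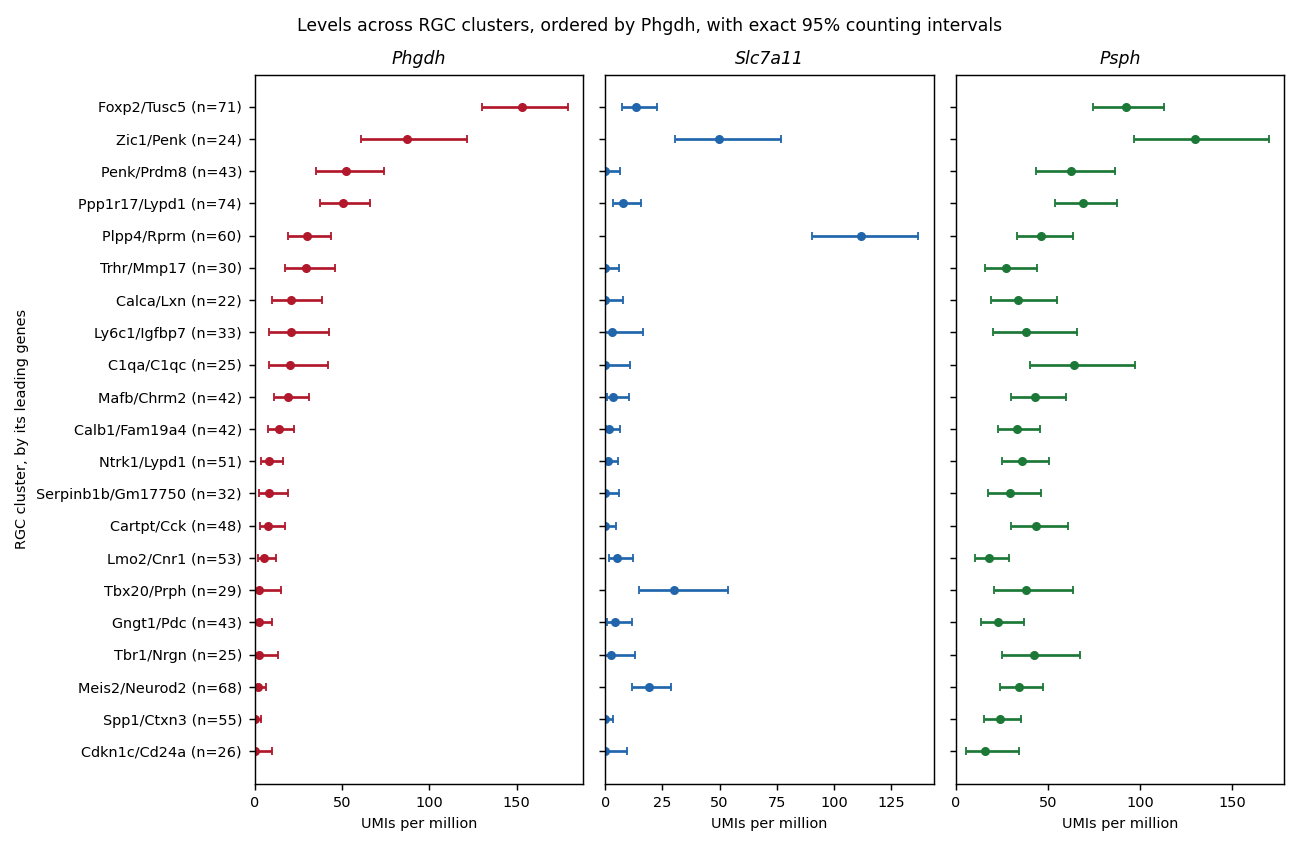
Levels of Phgdh, Slc7a11 and Psph (horizontal axes, CPM) in 21 of the 22 RGC clusters of 20 or more barcodes, named by leading genes and ordered by Phgdh, with exact 95% counting intervals. The Foxp2/Tusc5 cluster leads for Phgdh at 153 CPM, Plpp4/Rprm for Slc7a11 at 112 CPM and Zic1/Penk for Psph at 130 CPM.

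Across the 22 clusters, the pattern of Phgdh was most like those of Chac1, a glutathione-degrading enzyme gene (Pearson r = 0.84), Herpud1, an endoplasmic reticulum stress gene (0.83), March5 (0.83), Psph (0.83) and Vapa (0.83), of 7894 genes. Psat1 (0.52), Shmt2 (0.67) and Slc3a2 (0.68) were also positive, and Srr was not (-0.20). Slc7a11 was most like Slc1a4 (0.75), Zfyve19 (0.73), Arl6 (0.69), Pfdn6 (0.66) and Use1 (0.65), of 7895 genes. Of 24 genes of the amino acid response list that could be ranked, 13 had r of 0.5 or more with Phgdh (54.2%), against 5.70% of all genes. Among these were Asns, asparagine synthetase (0.79), Cars (0.75), Sars (0.68) and Atf4 itself (0.62). With Slc7a11 it was 8 of 24 (33.3%), against 1.30% of all genes. The clusters share 1 library and differ in size and depth, so these are descriptions.

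Members also met in the same barcodes. Among 846 RGC barcodes at 10000 UMIs, Phgdh and Psat1 were found together in 50 where their separate shares would give 22.3, Phgdh and Psph in 73 where they would give 45.0, and Phgdh and Slc7a11 in 27 where they would give 12. Srr and Phgdh met in 12, where 16.0 would be given. Within the 94 Foxp2 barcodes, Phgdh met Psat1 in 13 against 8.04 and Psph in 17 against 15.7. Within the 70 Tbr1/Plpp4 barcodes, Phgdh met Slc7a11 in 8 against 6. In the 623 remaining RGCs, Phgdh met Psat1 in 32 against 14.0, Psph in 49 against 27.1 and Slc7a11 in 13 against 5.12. Levels also differed between RGC clusters, and their part in these counts was not tested.

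Glial and microglial genes were read beside Phgdh because Müller and microglia barcodes also held it. In 36 Foxp2 barcodes with a Phgdh UMI, the 10 Müller markers summed to 400 CPM and 3 of them (Slc1a3, Aqp4 and Sox9) were at 0. In 58 Foxp2 barcodes without one they summed to 470 CPM, and Aqp4 alone was at 0. The 7 microglial markers summed to 72.5 CPM with Phgdh and 95.1 CPM without, where the highest barcode held 2292 CPM. The medians per barcode of these markers ran the other way, at 63.0 CPM with Phgdh and 57.9 CPM without. Over RGC barcodes of all kinds, they summed to 128 CPM in 135 with Phgdh and 106 CPM in 711 without. The medians there were 71.2 CPM and 68.3 CPM, and the highest barcode with Phgdh held 7635 CPM. The part of the microglial markers in the Phgdh levels was not tested. For each 100 UMIs of C1qa there were 469 of Phgdh in the Foxp2 subset and 0.986 in microglia barcodes. In 28 Tbr1/Plpp4 barcodes with Slc7a11, the Müller markers summed to 474 CPM, with the same 3 at 0. In 42 without it they summed to 487 CPM, and Aqp4 alone was at 0. The rod markers in Tbr1/Plpp4 barcodes summed to 1520 CPM with Slc7a11 and 563 CPM without, and the highest barcode with it held 22314 CPM. Their medians per barcode ran the other way, at 527 CPM with Slc7a11 and 579 CPM without. The part of the rod markers in the result was not tested.

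The neighbouring steps were read from lists of the pathway's genes, beside the 1.02% of all genes that were higher and the 4.67% that were lower by 2-fold in the Foxp2 subset. Of 8 measured folate one-carbon genes, 1 was higher in the Foxp2 subset than in the remaining RGCs, Mthfd2, a mitochondrial folate enzyme, at 107 CPM against 46.6 CPM (2.30-fold, 1.93 to 2.73), and none was lower. Of 12 glutathione genes, 1 was higher, Gsr, glutathione reductase, at 119 CPM against 59.4 CPM (2.01-fold). Of 15 genes that take serine into lipids, 1 was lower, Sptssb, a small subunit of serine palmitoyltransferase, at 16.1 CPM against 67.9 CPM. Of 26 amino acid response genes, none was higher by 2-fold and 1, Nupr1, was lower, with a median log2 ratio of 0.34 against -0.02 over all genes. The 1 of 15 and the 1 of 26 that were lower are near the share of all genes.

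In the Opn4 subset, 4 of those 26 were lower, where 6.94% of all genes were, and none higher, where 3.16% were, with a median log2 ratio of -0.38 against -0.04 over all genes. The 4 were Trib3 and Eif4ebp1, whose UMIs in the subset were few, Chac1, at 7.19 CPM in Opn4 barcodes against 31.6 CPM in the remaining RGCs, and Asns, at 52.8 CPM against 117 CPM. Sptssb was at 5.60 CPM against 67.9 CPM. Of 12 glutathione genes, Chac1 was also the 1 that was lower, and the 1 that was higher was Gpx3, an extracellular glutathione peroxidase, at 124 CPM against 21.1 CPM (5.86-fold, 4.77 to 7.18). The 1 of 12 that was lower is near the share of all genes. Grin3a, an NMDA receptor subunit, was higher in all 3 subsets than in the remaining RGCs, at 3.15-fold in Foxp2, 2.2-fold in Tbr1/Plpp4 and 4.52-fold in Opn4 barcodes, which share that reference. Grin2a was lower in all 3, at 0.0807, 0.304 and 0.396 of its level. The other two of the 4 measured subunits, Grin1 and Grin2b, were lower by 2-fold in the Opn4 subset alone, at 0.486 and 0.371. In the Tbr1/Plpp4 subset, none of the 26 amino acid response, 12 glutathione or 8 folate genes reached 2-fold either way.

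Against Müller barcodes, the listed genes around the chain ran in both directions in RGCs. So did all genes, of which 27.3% were higher and 16.4% lower by 2-fold. Of 9 upper glycolysis genes, 8 were higher in RGC barcodes and none lower, among them Tpi1 at 3.91-fold. Of 4 glycine cleavage genes, 2 were lower, among them Gldc, the decarboxylase, at 0.373 CPM in RGC against 58.6 CPM in Müller barcodes, and 1 was higher, Dld, at 70.3 CPM in RGC against 31.0 CPM in Müller barcodes. Of 10 neutral amino acid carriers, 4 were higher, among them Sfxn1, a mitochondrial serine carrier, at 199 CPM in RGC against 21.8 CPM in Müller barcodes. Slc38a3 was the 1 that was lower, a glutamine carrier gene, at 7.58 CPM against 231 CPM. Of 26 amino acid response genes, 10 were higher and 4 lower. Asns was 17.7-fold higher (8.99 to 41.2), at 119 CPM in RGC against 6.69 CPM in Müller barcodes. The 4 that were lower were Atf3 at 0.0792, Cebpb at 0.195, Ddit4 at 0.240 and Nupr1 at 0.341 of the Müller level. The 4 of 26 that were lower, and the 1 of 4 glycine cleavage genes that was higher, are near the shares of all genes.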

How the data were processed

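Per the labels' protocols, GFP-sorted retinal cells were captured with the 10x Chromium 3′ V2 kit. The submitters' processing notes name Cell Ranger, Seurat 2.2 and mm10, without roles. The values the authors deposited are counts: whole UMIs per gene and barcode, not normalized. Since no barcode names a retina, the planned edgeR test on sums per retina was not run, and there are no p-values. The members, gates and 14 gene lists were chosen with earlier results of these data known. No barcode filter was used and doublets were kept. UMIs were summed per class and scaled to CPM with exact Poisson intervals, shares have exact Clopper-Pearson intervals, and ratios exact conditional intervals. A gene counted in a contrast when its UMIs in the classes compared came to 50 or more, and was called at 2-fold. A level of 0 was set to 3 counts for a bound. Members are always named. List genes were named at 2-fold, at most 4 each way per list and contrast, and the 5 genes most like Phgdh and Slc7a11 were taken by Pearson r of log2(CPM + 10), among genes with 200 or more RGC UMIs. Which of the list genes are printed was chosen after their values were seen. RGC barcodes were clustered without list genes (scanpy 1.11.5, 2000 variable genes, 30 components, 15 neighbours, Leiden resolution 1), and 1 cluster is not reported here by name. Of the contrasts, only the Foxp2 subset over the remaining RGCs and RGC over horizontal barcodes were tried on simulated data. Close copies were taken at 95% identity over 90 or more bases. Python 3.11.15, scipy 1.17.1 and pandas 2.3.3 were used.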

Additional observations from a re-analysis of the deposited data

How the results depend on the processing

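No paired analysis was possible because no barcode names its retina, and leaving out each retina was not run for the same reason. Of 360 member ratios under the alternatives, 351 stayed within the interval of the reported value or, for bounds, within 1.5 times of it. None of the ratios at 2-fold or more changed direction, while 14 of the 360, of 7 smaller ratios whose intervals all span 1, fell on the other side of 1. Slc3a2 in RGC over bipolar barcodes, at 1.01, was among them, at 0.891 under the mitochondrial filter. Without barcodes of 2 classes, Phgdh in RGC over bipolar barcodes was 26.0-fold in place of 7.90. With all RGCs outside the gate as the comparison, Slc7a11 in the Opn4 subset was at most 0.188 of their level in place of 0.297. The minimum of 50 UMIs was also replaced by 1 or more UMIs in each class compared, which leaves out genes at 0 in either. The genes at 2-fold or more were then 1838 lower in RGC than horizontal (1104 with the minimum of 50), 3649 lower than Müller (1901) and 2883 lower than bipolar barcodes (1463). They were 883 higher (110) and 896 lower (504) in the Foxp2 subset, 964 higher (115) and 722 lower (430) in the Tbr1/Plpp4 subset, and 1476 higher (340) in the Opn4 subset. Thinned to 5000 UMIs in place of 10000, Phgdh was found in 9.97% of the remaining RGCs, and Slc7a11 in 25.3% of the Tbr1/Plpp4 subset and 2.71% of the remaining RGCs. Leiden resolutions of 0.5 and 2 gave 17 and 27 clusters, and the clusters highest for Phgdh and Slc7a11 held the same 71 and 60 barcodes. Leaving out 58 barcodes that Scrublet called doublets, an alternative chosen after seeing the data, raised Slc7a11 in RGC over bipolar barcodes to 19.9-fold. Values of a few UMIs, such as the 1 Slc7a11 UMI in horizontal barcodes, are limited by depth.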

Other observations

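The 461 barcodes that met no gate, with a median depth of 6789 UMIs, held Phgdh at 10.7 CPM (7.63 to 14.7), Psat1 at 22.8 CPM, Psph at 53.1 CPM and Shmt2 at 69.6 CPM (61.3 to 78.8). Slc1a4 was at 26.2 CPM, Srr at 13.5 CPM, Slc7a11 at 5.78 CPM and Slc3a2 at 129 CPM there, and no Shmt1 UMI was found. The other motif searched, the antioxidant response element core TGACNNNGC with its reverse GCNNNGTCA, was found once each in the promoters of Phgdh and Psph, in none of the 7 other members, and in 12.4% of 32851 promoters.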
